A study of Mus musculus with 4 samples.

Results

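The cytotoxic T and natural killer (NK) cells described here were 121 of 23723 kept cells from 4 droplet single-cell RNA libraries of mouse lung. A cell was kept with at least 500 genes and at most 10% mitochondrial UMIs, where a UMI is a molecular identifier that counts 1 captured transcript. It was a member with at least 4 UMIs summed over Gzma, Prf1, Klrd1, Nkg7 and Ccl5, of which at least 2 had to be detected. It also had to have 0 UMIs of the endothelial gene Cdh5 and of the B cell genes Cd79a and Ms4a1, and at most 1 UMI summed over Icos, Ctla4, Foxp3 and Tnfrsf4. Members with 0 UMIs over Cd3d, Cd3e and Cd3g were called NK cells (52), members with at least 2 were called T cells (59), and the 10 members with 1 such UMI were placed in neither class. The members were thus chosen by the measured UMIs of these marker genes, whose values are given as a description and support nothing.

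The 4 libraries, 1 per group, came from M3cKO mice and Foxo1cKO mice on day 7 after pneumonectomy (PNX, surgical removal of part of the lung), from wild-type (WT) mice on day 7 after PNX, and from WT mice after a sham operation. The study asked about endothelial cells in lung regrowth: digested lungs were first depleted of CD45+ cells with antibody-coated beads, and CD31+ cells were then kept, per the labels' protocols. Lymphocytes carry CD45, so the cells described here are ones that this depletion left behind, and their share depends on how complete it was in each library. The labels do not say what M3 stands for, which promoter drove the conditional deletions, or how many animals, of which age and sex, entered a library. With 1 library per group no difference between groups could be tested, and all 95% intervals below cover counting error only.

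NK cells and cytotoxic T cells kill target cells with the contents of secretory granules: perforin (Prf1) opens the target's membrane and granzymes (Gzma, Gzmb), which are serine proteases, enter and start cell death. NK cells carry no T cell receptor and act on the balance between activating and inhibitory receptors, many of them lectins of the Klr families, whose activating members signal through the adaptors Tyrobp and Fcer1g. CD8 T cells recognise peptide on MHC class I through a T cell receptor and its CD3 chains. Naive and central memory T cells recirculate through lymph nodes by way of the chemokine receptor Ccr7, which effector cells lose.

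The 250 bases before the RefSeq transcription start (assembly GRCm38.p6) are shown, on the gene's own strand, for 4 genes that separated NK from T cells below: both granzymes, perforin and Ncr1, the NK receptor NKp46. Capitals mark exact matches, on either strand, to the T-box core TCACAC and to the RUNX core TGTGGT, motifs of transcription factor families with known roles in cytotoxic lymphocytes. The genes and motifs were chosen after their values were seen.
Gzma, chr13:113100982-113101231, minus strand: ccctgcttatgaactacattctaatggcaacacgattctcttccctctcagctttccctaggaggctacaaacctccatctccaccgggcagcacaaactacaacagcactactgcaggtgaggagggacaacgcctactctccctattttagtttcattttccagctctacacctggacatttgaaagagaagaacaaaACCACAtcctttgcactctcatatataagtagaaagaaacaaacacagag
Gzmb, chr14:56262335-56262584, minus strand: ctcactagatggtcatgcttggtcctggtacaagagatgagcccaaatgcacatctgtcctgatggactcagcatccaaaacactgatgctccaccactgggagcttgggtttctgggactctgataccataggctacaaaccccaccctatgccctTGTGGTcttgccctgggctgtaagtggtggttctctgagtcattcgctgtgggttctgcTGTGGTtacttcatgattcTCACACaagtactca
Prf1, chr10:61297586-61297835, plus strand: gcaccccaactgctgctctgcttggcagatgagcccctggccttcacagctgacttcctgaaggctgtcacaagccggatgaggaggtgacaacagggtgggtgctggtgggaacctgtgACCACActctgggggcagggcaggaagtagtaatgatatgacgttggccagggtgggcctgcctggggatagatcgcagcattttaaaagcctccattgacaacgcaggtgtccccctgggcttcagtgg
Ncr1, chr7:4337465-4337714, plus strand: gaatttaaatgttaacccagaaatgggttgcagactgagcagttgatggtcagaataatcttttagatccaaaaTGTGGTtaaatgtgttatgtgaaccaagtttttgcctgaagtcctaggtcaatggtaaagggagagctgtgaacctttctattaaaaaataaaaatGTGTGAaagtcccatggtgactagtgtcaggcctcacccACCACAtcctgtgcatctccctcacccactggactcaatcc
The Gzmb promoter held 1 T-box core and 2 RUNX cores, and so did the Ncr1 promoter. The Gzma and Prf1 promoters each held 1 RUNX core and no T-box core in this window. No bases were shared between matches. Among 32851 mouse promoter windows of the same length, 12.3% held the T-box letters and 14.0% the RUNX letters, so such matches are common and are a description of sequence, not of binding. Ncr1 has 2 starts in the table, of which 1 is shown.

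The cytotoxic cells were 61 of 5543 kept cells in the M3cKO PNX library, 30 of 6464 in Foxo1cKO PNX, 27 of 6397 in WT PNX and 3 of 5319 in sham. As a share of kept cells this was 1.10% (95% Clopper-Pearson interval 0.843 to 1.41) in M3cKO PNX, 0.464% (0.313 to 0.662) in Foxo1cKO PNX, 0.422% (0.278 to 0.614) in WT PNX and 0.0564% (0.0116 to 0.165) in sham. The M3cKO PNX interval lay above those of the other 3 libraries, and the Foxo1cKO PNX and WT PNX intervals overlapped almost wholly. The NK cells numbered 28 in M3cKO PNX, 11 in Foxo1cKO PNX, 13 in WT PNX and 0 in sham, and the T cells 26, 17, 13 and 3 in the same libraries.

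**Figure D1:**
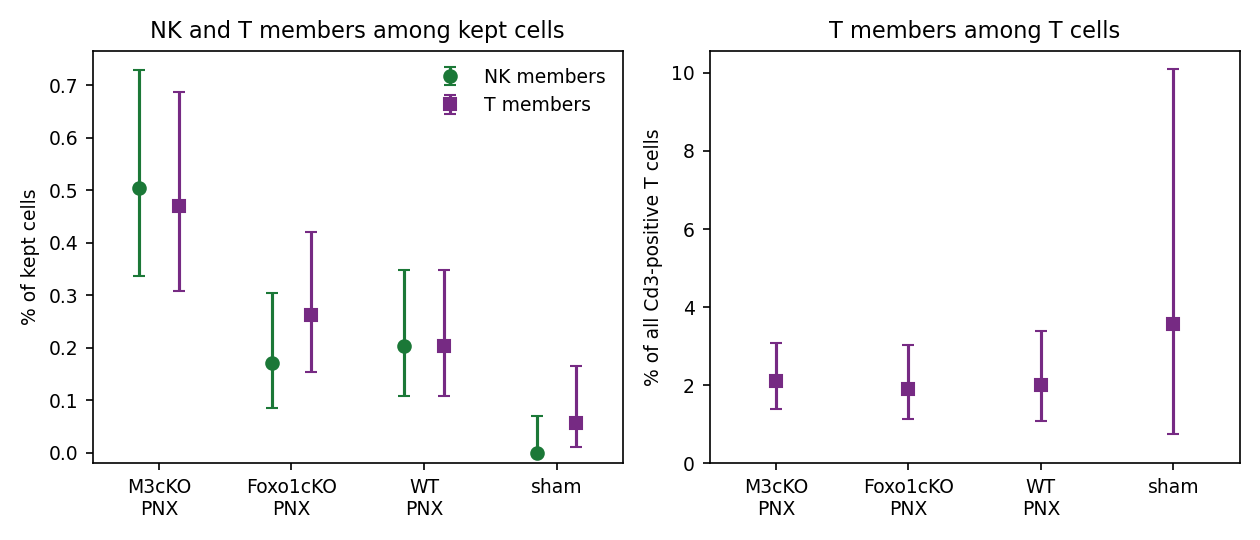
Left, NK members (circles) and T members (squares) in percent of kept cells; right, T members in percent of all Cd3-positive T cells; bars are exact 95% binomial intervals. NK members were 0.505% and T members 0.469% of kept cells in M3cKO PNX, the highest of the 4 libraries, while the share of T cells that were members lay between 1.91% and 3.57%.

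At the limit of 10% mitochondrial UMIs, the share of T members in the 3 PNX libraries moved with that of all T cells. The share of members did not follow that of B cells. All Cd3-positive T cells made up 22.2% of kept cells in M3cKO PNX, 13.8% in Foxo1cKO PNX, 10.2% in WT PNX and 1.58% in sham. Cytotoxic T members were 2.11% of those T cells in M3cKO PNX, 1.91% in Foxo1cKO PNX, 2.00% in WT PNX and 3.57% in sham. At that limit these values lay close together in the 3 PNX libraries. The NK cells were 2.22% (1.48 to 3.19) of NK and T cells together in M3cKO PNX, 1.22% (0.611 to 2.17) in Foxo1cKO PNX and 1.96% (1.05 to 3.32) in WT PNX. In sham, 0 of 84 such cells were NK, which allows a share of up to 3.57% at a limit of 3 counts and of up to 4.3% by the Clopper-Pearson interval. Set against B cells instead, the NK cells were 9.89% (6.68 to 14) of NK and B cells in M3cKO PNX, against 1.91% (0.959 to 3.4) in Foxo1cKO PNX and 2.16% (1.15 to 3.66) in WT PNX. B cells themselves were 4.6% of kept cells in M3cKO PNX, 8.73% in Foxo1cKO PNX, 9.21% in WT PNX and 1.3% in sham. Among members, other T cells and B cells together, the members were 4.01% (3.08 to 5.12) in M3cKO PNX, 2.04% (1.38 to 2.91) in Foxo1cKO PNX, 2.15% (1.42 to 3.12) in WT PNX and 1.96% (0.406 to 5.62) in sham. The NK interval of M3cKO PNX thus lay above the others against B cells and overlapped them against T cells, and the part of cell capture and depletion in it was not tested.

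The gap between the libraries depended on the limit on mitochondrial UMIs. At a limit of 5% the members were 6 of 1325 kept cells in M3cKO PNX (0.453%, 0.166 to 0.983), 5 of 1206 in Foxo1cKO PNX (0.415%, 0.135 to 0.965), 7 of 1109 in WT PNX (0.631%, 0.254 to 1.3) and 0 of 1163 in sham (0%, 0 to 0.317). The intervals of the 3 PNX libraries overlapped widely on these few cells, so no order could be read at that limit. With no limit it was 1.55% (1.29 to 1.83) in M3cKO PNX, 0.439% in Foxo1cKO PNX, 0.314% in WT PNX and 0.125% in sham. Of the barcodes that met the marker rule, 70 of 131 (53.4%, 44.5 to 62.2) exceeded 10% mitochondrial UMIs in M3cKO PNX, 7 of 37 in Foxo1cKO PNX, 1 of 28 in WT PNX and 6 of 9 in sham. These were mainly T cells in M3cKO PNX, where 62 of 88 T barcodes (70.5%, 59.8 to 79.7) lay above the limit, against 5 of 33 NK barcodes (15.2%, 5.11 to 31.9). Over all barcodes with at least 500 genes, 34.6% lay above it in M3cKO PNX, 23.2% in Foxo1cKO PNX, 28.4% in WT PNX and 26.3% in sham. With no limit, 88 T barcodes met the rule beside 2381 other T barcodes in M3cKO PNX, and 22 beside 1184 in Foxo1cKO PNX. In WT PNX 13 within the limit and 1 above it stood beside 943. The close shares of T members among T cells in the PNX libraries thus depended on the limit.

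The M3cKO PNX T barcodes above and within the limit differed in what they carried. The 62 above it had a Ccr7 UMI in 51 cells and Ccl5 at 5440 CPM (counts per 1000000 UMIs of those cells), with a median of 3390 UMIs per cell. The 26 within it had Ccr7 in 7 cells and Ccl5 at 10178 CPM, with a median of 2282 UMIs. Gzmb had 110 CPM above the limit and 526 CPM within it. The 10% limit thus left out mostly T cells with a Ccr7 UMI and little Gzmb from that library. In sham, 1 NK barcode and 4 T barcodes lay above the limit.

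**Figure D2:**
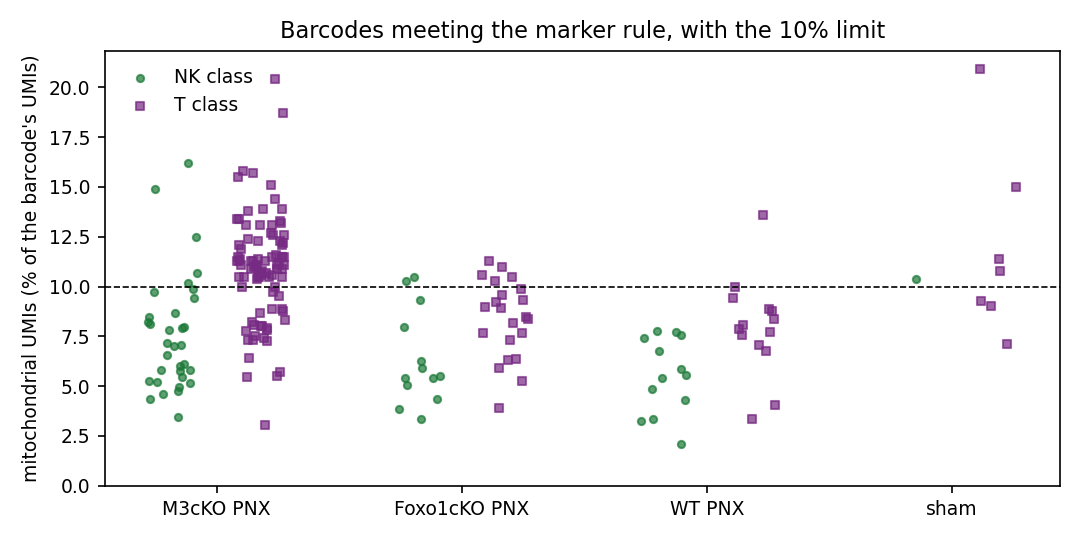
Mitochondrial share of UMIs, in percent on the y axis, of every barcode that met the marker rule, by library and class (NK and T), with the 10% limit as a dashed line; points are spread sideways. In M3cKO PNX 62 of 88 T barcodes lie above the line, against 5 of 33 NK barcodes.

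Pooled member UMIs were 146560 in M3cKO PNX, 84371 in Foxo1cKO PNX, 49802 in WT PNX and 6424 in sham, so that 1 UMI stood for 6.82, 11.9, 20.1 and 156 CPM in those libraries. The median per cell was 1791 UMIs in M3cKO PNX, 2435.5 in Foxo1cKO PNX, 1588 in WT PNX and 1881 in sham. The barcodes of 5 of the 121 members also occurred in another library. Removing the highest doublet scores took 1 member from Foxo1cKO PNX, 1 from sham and 0 from the other 2 libraries. Xist, which is transcribed from the inactive X chromosome, had 0 UMIs in M3cKO PNX members, 7 in Foxo1cKO PNX, 13 in WT PNX and 0 in sham, and Y-linked genes had 45, 13, 4 and 1 UMIs in the same libraries, so sex-linked transcripts differed between libraries, and sex cannot be told apart from the groups.

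Other cell types were rare in the members, with an exception of 5 cells. B cell markers summed to 3 UMIs in M3cKO PNX, 2 in Foxo1cKO PNX, 1 in WT PNX and 0 in sham, and the 8 endothelial markers to 14, 21, 20 and 1 UMIs, with Emcn at 0 in all 4 and Cdh5 at 0 by the rule. Monocyte and macrophage markers had 643 UMIs in M3cKO PNX, 0 in Foxo1cKO PNX, 6 in WT PNX and 0 in sham, and neutrophil markers 569, 5, 0 and 1. Most of those came from 4 M3cKO PNX cells, and 1 WT PNX cell was rich in MHC class II, each with at least 10 UMIs over Lyz2, C1qa, C1qb, Csf1r, S100a8, S100a9, H2-Aa, H2-Ab1 and Cd74. The M3cKO PNX cells were a T cell with 251 S100a8 and 283 S100a9 UMIs, an NK cell with 350 Lyz2 and 6 Gzma UMIs, an NK cell with 24 Gzma and 13 H2-Aa UMIs, and a cell with 1 Cd3 UMI and 101 C1qb UMIs. The WT PNX cell was an NK cell with 26 Ccl5, 122 H2-Aa and 120 H2-Ab1 UMIs. They carried another class's transcripts beside the cytotoxic ones and are called other-class cells here. Some results that rest on them are given with and without them. Values within NK or T cells include them unless stated.

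Marker transcripts in cells that should lack them varied with the gene. In endothelial cells a Gzma UMI was found in 1 of 2026 cells in M3cKO PNX, 0 of 3331 in Foxo1cKO PNX, 0 of 3488 in WT PNX and 2 of 4016 in sham. A Ccl5 UMI was found in 0.642%, 0.51%, 0.459% and 0.0747% of those cells. A Prf1 UMI was found in 50% of T members in M3cKO PNX, 64.7% in Foxo1cKO PNX and 46.2% in WT PNX, and in 1 of 3 in sham. Among B cells it was found in 4 of 255 in M3cKO PNX (1.57%), 11 of 564 in Foxo1cKO PNX (1.95%), 8 of 589 in WT PNX (1.36%) and 1 of 69 in sham (1.45%). Ptprc, which encodes CD45, was detected in 53 of 61 members in M3cKO PNX, 28 of 30 in Foxo1cKO PNX, 23 of 27 in WT PNX and 2 of 3 in sham. The endothelial class was itself chosen for 0 Ptprc UMIs, so Ptprc was not compared with it. At the edge of the rule, 15 cells had a marker sum of 3 (2 NK and 13 T) and 13 members a sum of 4 (1 NK and 10 T), and neither set had a single Gzma UMI. Klrd1 was their most counted marker, with 25 UMIs in the cells just outside and 23 in those just inside. A further 34 cells reached 4 UMIs with only 1 of the genes, mostly Ccl5 (269 UMIs), and were left out, as were 47 for activation markers (43 of them T cells) and 33 for Cdh5, Cd79a or Ms4a1.

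The NK label held for most NK cells against genes that the rule did not use. At least 1 of the NK receptors Ncr1, Klrb1c (NK1.1), Klre1, Klra8 and Klra4 was detected in 46 of 52 NK cells (23 of 28 in M3cKO PNX, 11 of 11 in Foxo1cKO PNX, 12 of 13 in WT PNX), against 10 of 59 T cells. Ncr1 was found in 24 NK cells and in 0 T cells. Trac, the constant chain of the T cell receptor alpha, had 0 UMIs in all 52 NK cells and was detected in 42 of 59 T cells. Innate lymphoid (ILC2) markers were seen in 3 of 52 NK cells. Trbc1 is an exception: it was detected in 36 NK cells, at 978 CPM in M3cKO PNX NK cells, 1342 in Foxo1cKO PNX and 840 in WT PNX, against 414, 470 and 582 CPM in the T cells of those libraries. Trbc1 had 107 UMIs in NK cells and 71 in T cells, and Trbc2 had 23 and 441. The 2 genes are nearly identical, so the split of reads between them is uncertain, and its part in these counts was not tested. A UMI of Trac, Trbc1, Trbc2 or Trdc was found in 41 of 52 NK cells. The label is doubtful for an M3cKO PNX NK cell of 2437 UMIs. That cell had 3 Cd8b1, 3 Ccr7 and 4 Il7r UMIs, and 0 UMIs of Ncr1, Klrb1c, Klre1, Tyrobp and Irf8.

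Granule genes marked the NK cells. Gzma, granzyme A, had 5428 CPM in NK cells against 287 CPM in T cells of M3cKO PNX, 8099 against 36.2 CPM in Foxo1cKO PNX, and 6533 against 77.7 CPM in WT PNX. It was detected in 44 of 52 NK cells with a median of 8 UMIs and a maximum of 65, and in 9 of 59 T cells with a maximum of 10. Gzmb, granzyme B, had 1531 CPM in NK cells against 526 CPM in T cells of M3cKO PNX, 2633 against 669 CPM in Foxo1cKO PNX and 2847 against 777 CPM in WT PNX. In all 3 libraries both granzymes were thus higher in NK cells, and the gap was wider for Gzma. Prf1 had 884 CPM in NK cells against 334 CPM in T cells of M3cKO PNX, 2186 against 326 CPM in Foxo1cKO PNX and 2987 against 272 CPM in WT PNX. Most NK cells co-expressed them: 37 of 52 had both granzymes and 38 had Gzma with Prf1. Gzma and Prf1 entered the rule and the classes were cut on Cd3 genes of the same cells, so all contrasts of NK with T cells are descriptions.

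Ccl5, a chemokine that draws T cells and monocytes, was shared by both classes. It had 11630 CPM in NK cells against 10178 CPM in T cells of M3cKO PNX, 19279 against 5084 CPM in Foxo1cKO PNX, and 17733 against 10951 CPM in WT PNX. It was detected in 49 of 52 NK cells (median 24.5 UMIs) and in 47 of 59 T cells (median 15). It reached 73 UMIs in an NK cell and 84 in a T cell.

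**Figure D3:**
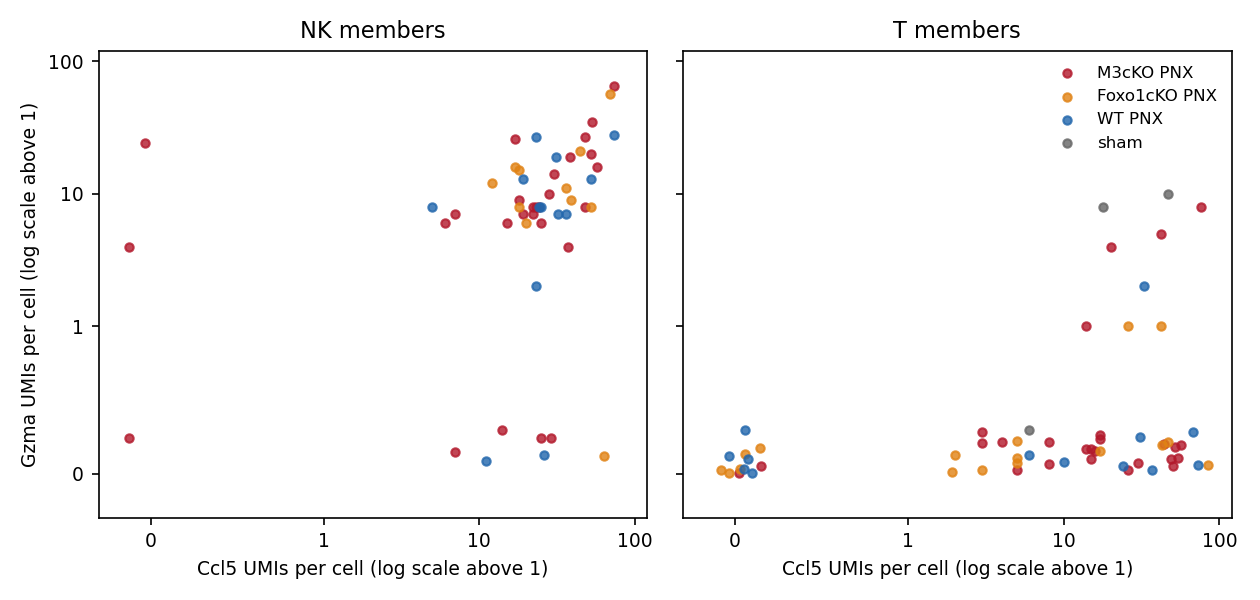
UMIs of Gzma (y axis) against UMIs of Ccl5 (x axis) per cell, NK members left and T members right, coloured by library, on axes that are logarithmic above 1 UMI; points near 0 are spread slightly. NK cells carry both, with Gzma in 44 of 52, and most T cells lie along the bottom, with Gzma in 9 of 59.

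A total of 426 genes reached 300 CPM in either class of each of the 3 PNX libraries. With a log2 ratio of CPM + 20 of at least 1 in size in all 3, 25 genes were higher in NK cells (5.87%) and 24 lower (5.63%). On the same scale Irf8, a transcription factor of the interferon-regulatory family, stood 7.39 higher in log2 in M3cKO PNX, 4.59 in Foxo1cKO PNX and 7.21 in WT PNX. It had 3330 CPM in NK cells against 0 in T cells of M3cKO PNX, 3081 against 109 in Foxo1cKO PNX and 2940 against 0 in WT PNX, and was detected in 45 of 52 NK cells and 2 of 59 T cells. The adaptors Tyrobp (DAP12) and Fcer1g followed. Tyrobp had 1089 CPM in NK cells against 271 in T cells of M3cKO PNX, 3478 against 0 in Foxo1cKO PNX and 2333 against 0 in WT PNX; its log2 ratio in M3cKO PNX was 1.93, and 3.67 without the other-class cells. Fcer1g had 1041 CPM in NK cells against 127 in T cells of M3cKO PNX, 1938 against 0 in Foxo1cKO PNX and 747 against 38.8 in WT PNX. Both adaptors were thus at or near 0 in T cells of Foxo1cKO PNX and WT PNX.

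Itgam, the integrin CD11b that appears on maturing NK cells, had 1168 CPM in NK cells against 63.7 in T cells of M3cKO PNX, 397 against 0 in Foxo1cKO PNX and 1540 against 38.8 in WT PNX. The activating receptor Klra4 (Ly49D) had 331, 894 and 373 CPM in the NK cells of the 3 libraries, and 0 in T cells of all 3. Klrb1c had 410 CPM in NK cells against 47.8 in T cells of M3cKO PNX, 646 against 36.2 in Foxo1cKO PNX and 747 against 0 in WT PNX. The serpins that protect killer cells from their own granzymes were higher too. Serpinb9 had 978 CPM in NK cells against 223 in T cells of M3cKO PNX, 1093 against 145 in Foxo1cKO PNX and 1073 against 155 in WT PNX. Serpinb6b had 2225 CPM in NK cells against 542 in T cells of M3cKO PNX, 2087 against 561 in Foxo1cKO PNX and 1167 against 38.8 in WT PNX. Plek, Anxa2, AW112010, Bhlhe40, Lgals1 and Zfp36 also passed in the NK direction.

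Genes lower in NK cells included those of the T cell receptor and of recirculation. Trbc2 had 252 CPM in NK cells against 1959 in T cells of M3cKO PNX, 199 against 4071 in Foxo1cKO PNX and 140 against 3145 in WT PNX. The adaptor Lat, which relays T cell receptor signals, had 63.1 CPM in NK cells against 350 in T cells of M3cKO PNX, 49.7 against 633 in Foxo1cKO PNX and 0 against 311 in WT PNX. All 3 libraries thus showed the same order for both genes. Ccr7 had 78.9 CPM in NK cells against 414 in T cells of M3cKO PNX, 0 against 905 in Foxo1cKO PNX and 46.7 against 1048 in WT PNX. Tcf7, the transcription factor TCF1 of naive and memory T cells, had 142 CPM in NK cells against 510 in T cells of M3cKO PNX, 199 against 597 in Foxo1cKO PNX and 46.7 against 1010 in WT PNX. Cd8a had 0 CPM in NK cells of all 3 libraries, against 319, 452 and 738 CPM in T cells. Rapgef6, Dgka, Ms4a6b, Emb, Saraf, Gramd3 and Gimap6 passed in the same direction.

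Gene lists described the same split at a lower bar of 100 CPM and 1.5-fold in all 3 libraries, which 9.77% of 1362 genes passed upward and 8.22% downward, with a median log2 ratio of 0.09. Inhibitory NK receptors were higher for 4 of 4 measured genes, with a median log2 ratio of 3.08, led by Klrb1b at 4.00 and Klra7 at 3.99. Activating receptors were higher for 5 of 8 and lower for 0, with Klra4 at 4.30, Klrb1c at 3.57 and Klri2 at 3.06. T cell receptor complex genes were lower for 8 of 11 and higher for 0, with a median of -2.68. Granule proteins were higher for 5 of 9 and lower for 1, which was Slfn1 at -2.33, a gene better known from T cell quiescence. The cytokine genes Ccl3 (3.99) and Ccl4 (2.32), chemokines of activated killer cells, were higher for 2 of 2 measured. FOXO target genes were higher for 1 of 13 and lower for 4, among them Ccr7, Tcf7, Il7r (-1.78) and the egress receptor S1pr1 (-2.24). MHC class I genes were higher for 0 of 11 and lower for 0, and glycolysis genes for 0 and 0 of 8.

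**Figure D4:**
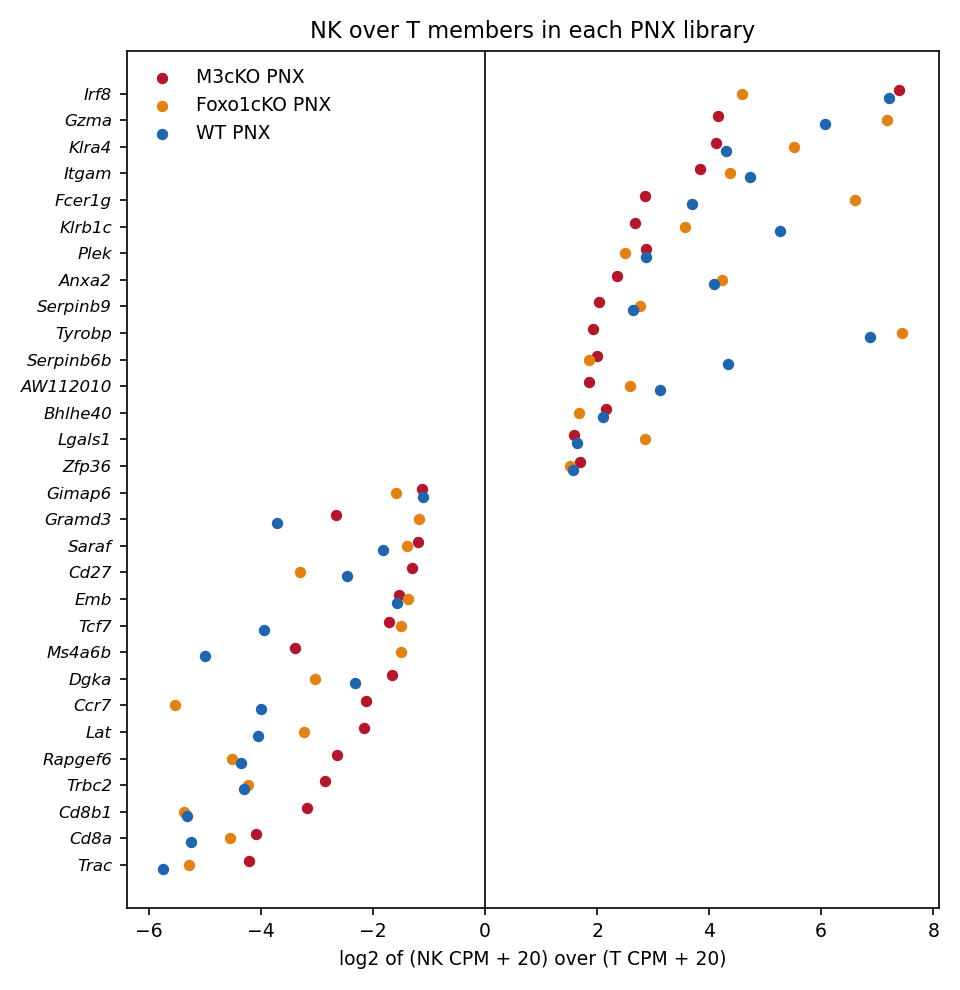
log2 ratio of NK over T on log2(CPM + 20), on the x axis, for named genes in the M3cKO PNX, Foxo1cKO PNX and WT PNX libraries (sham had 0 NK cells). Irf8, Gzma, Itgam and Klra4 lie on the NK side in all 3 libraries and Trac, Cd8a and Ccr7 on the T side.

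Within the NK cells, maturation markers split unevenly. Itgam was detected in 27 of 52 and Cd27, a marker of less mature NK cells, in 7. Of the 52 cells 24 had Itgam alone, 4 had Cd27 alone, 3 had both and 21 had neither. Klrg1, an inhibitory receptor of mature NK cells, was found in 26 and the egress receptor S1pr5 in 7. Eomes, a T-box factor of NK cells, was found in 21. Ifng was found in 10 NK cells with 36 UMIs in all, Ccl4 in 16, Ccl3 in 14 and Xcl1 in 12. Ccl3 and Ccl4 were both found in 7 NK cells and neither in 29. Detection at these depths misses transcripts, so a cell without a UMI is not shown to lack the gene.

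The T cells were mostly CD8. A Cd8a or Cd8b1 UMI without Cd4 was found in 15 of 26 in M3cKO PNX, 16 of 17 in Foxo1cKO PNX, 11 of 13 in WT PNX and 3 of 3 in sham, 45 of 59 in all. Cd4 alone was seen in 1 T cell, both coreceptors in 1 and neither in 12, of which 9 were in M3cKO PNX. Trdc, the constant chain of the T cell receptor delta, was detected in 4 T cells. Members were 9.62% (5.48 to 15.4) of all Cd8 T cells in M3cKO PNX, 10.8% (6.31 to 17) in Foxo1cKO PNX, 9.02% (4.59 to 15.6) in WT PNX and 13.6% (2.91 to 34.9) in sham. These intervals overlapped, while Cd8 T cells themselves were 12.7% of T cells in M3cKO PNX, 16.6% in Foxo1cKO PNX, 18.7% in WT PNX and 26.2% in sham.

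T cells with a Ccr7 UMI had less Ccl5, Gzmb and Gzma than those without, and differed little in genes of naive and memory cells. The split was chosen after the values were seen. The 27 cells with Ccr7 had 2768 CPM of Ccl5, 193 CPM of Gzmb and 0 UMIs of Gzma. The 32 cells without it had 15468 CPM of Ccl5, 1141 CPM of Gzmb and 593 CPM of Gzma. Prf1 had 314 CPM in cells with Ccr7 and 311 CPM in cells without. Il7r, the interleukin 7 receptor, had 749 CPM in cells with Ccr7 and 622 CPM in cells without, Tcf7 689 and 548 CPM, and the related factor Lef1 290 and 267 CPM. Klrd1 was detected in 21 of 27 cells with Ccr7 and in 16 of 32 without. Ccl5, Gzma, Prf1 and Klrd1 entered the rule that chose the cells. Ccl5 was detected in 15 of the 27 cells with Ccr7 and in all 32 without. A cell without Ccl5 and Gzma could enter only with at least 4 UMIs over Prf1, Klrd1 and Nkg7. The values of these marker genes were thus partly set by the rule, and nothing is read from them. The median depth was 3111 UMIs with Ccr7 and 1981 without, and its part in the counts of this split was not tested. A Ccr7 UMI was found in 7 of 26 T cells in M3cKO PNX (26.9%, 11.6 to 47.8), 12 of 17 in Foxo1cKO PNX (70.6%, 44 to 89.7), 7 of 13 in WT PNX (53.8%, 25.1 to 80.8) and 1 of 3 in sham. In M3cKO PNX the mitochondrial limit had left out a further 51 T cells with a Ccr7 UMI.

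The deleted gene Foxo1, a transcription factor that holds T cells in a quiescent, recirculating state, was read in the members as a check of the labels. It had 382 CPM (95% Poisson interval 289 to 496) in M3cKO PNX members, 154 CPM (82 to 263) in Foxo1cKO PNX, 221 CPM (110 to 395) in WT PNX and 1090 CPM (438 to 2245) in sham, from 56, 13, 11 and 7 UMIs. The Foxo1cKO PNX interval overlapped that of WT PNX. In the other T cells of each library it was 334, 335, 356 and 242 CPM. The labels do not say in which cells the deletion acts, and reads at the end of the transcript outside the deleted part would not show it, so these values check nothing about the deletion. Rhoj, the GTPase named in the study's title, had 1 UMI in M3cKO PNX members and 0 in the other libraries. Pecam1, which encodes CD31, the antigen of the sort, had 3 UMIs in M3cKO PNX, 7 in Foxo1cKO PNX, 5 in WT PNX and 0 in sham.

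The comparisons between libraries pool all members of a library, and M3cKO PNX, Foxo1cKO PNX and sham are each set against the same WT PNX library. These sums mix NK and T cells, so values within each class are given for many of the genes. A gene counted as apart when it had at least 300 CPM and UMIs in at least 5 members of the higher library, with a log2 ratio of CPM + 20 of at least 1 in size.

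In M3cKO PNX members, chaperones and the survival gene Bcl2 were higher than in WT PNX members, and the NK receptors Ncr1 and Klrb1b and T cell receptor genes were lower. By the rule of size 49 of 600 genes were higher (8.17%) and 54 lower (9%). Dnajb1, a co-chaperone of the HSP40 family, had 57 UMIs in 31 of 61 M3cKO PNX members (389 CPM) and 5 UMIs in 5 of 27 WT PNX members (100 CPM), a ratio of 3.87 (1.57 to 12.4). M3cKO PNX was higher than WT PNX both in NK cells (363 against 93.3 CPM) and in T cells (398 against 116 CPM), and likewise in the other T cells (353 against 125 CPM). Hspa8, the constitutive HSP70, had 4251 CPM in M3cKO PNX and 1446 CPM in WT PNX, from 623 and 72 UMIs, a ratio of 2.94 (2.3 to 3.81). NK cells had 4592 CPM in M3cKO PNX against 980 CPM in WT PNX, and T cells 3616 against 1670 CPM. Hspa1b, the inducible HSP70, had 89 UMIs in 13 M3cKO PNX members and 0 UMIs in WT PNX, at least 10.1-fold higher when WT PNX is set to a floor of 3 UMIs. A single cell held 51.7% of those UMIs.

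Over the chaperone list, 12 of 14 measured genes were higher in M3cKO PNX and 0 lower by 1.5-fold at 100 CPM, with a median log2 ratio of 1.20, where 19.8% of 2422 genes were higher, 29.6% lower and the median was -0.15. Without the 5 other-class cells it was again 12 of 14, with a median of 1.33. Hsp90aa1 had 1542 CPM in M3cKO PNX and 643 CPM in WT PNX, and Dnaja1 had 812 CPM in M3cKO PNX and 281 CPM in WT PNX. The same direction was seen outside the members: Hspa8 had 4255 CPM in other T cells of M3cKO PNX and 1439 CPM in those of WT PNX, and Hspa1b had 1365 CPM in endothelial cells of M3cKO PNX and 145 CPM in those of WT PNX. Higher chaperone transcripts in M3cKO PNX were thus not confined to the members.

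Bcl2, which blocks the mitochondrial path of cell death, had 56 UMIs in 30 M3cKO PNX members (382 CPM) and 5 UMIs in 5 WT PNX members (100 CPM), a ratio of 3.81 (1.54 to 12.2). M3cKO PNX stood against WT PNX at 363 against 93.3 CPM in NK cells and 510 against 116 CPM in T cells, but at 213 against 383 CPM in the other T cells, where M3cKO PNX had the lower value. Several other genes that passed upward rested on the other-class cells. Ctsb, a lysosomal protease of macrophages, had 1078 CPM in M3cKO PNX and 80.3 CPM in WT PNX, a log2 ratio of 3.45 that was 0.61 without those cells. Lamp1 moved in the same way, with 2.47 and then 0.83, as did Cst3, cystatin C, with 2.36 and then 0.32, and Ftl1, a ferritin chain, with 2.00 and then 0.37. Maf, a transcription factor of helper T cells, was at 2.44 and then 1.92, and the vacuolar pump subunit Atp6v0c at 2.03 and then 1.39. The chemokine gene Ccl3 was at 1.99 with 61.2% of its UMIs in 1 cell, and 1.06 without the 5 cells.

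Cytokine genes were higher in M3cKO PNX for 4 of 5 measured and lower for 0. Ifng, interferon gamma, had 37 UMIs in 11 M3cKO PNX members (252 CPM), of which 31 were in 7 NK cells, and 2 UMIs in 1 WT PNX member (40.2 CPM). Tnf was at a log2 ratio of 2.77 and Xcl1 at 2.49. Most of these counts came from few cells.

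Ncr1, the activating receptor NKp46, had 5 UMIs in M3cKO PNX members (34.1 CPM), against 15 UMIs in WT PNX members (301 CPM), 8.83-fold lower (3.05 to 31.1). It was detected in 5 of 28 NK cells in M3cKO PNX, 10 of 11 in Foxo1cKO PNX and 9 of 13 in WT PNX, at 78.9, 1093 and 700 CPM. With each cell thinned to 1000 UMIs the shares were 4.17% (0.105 to 21.1) in M3cKO PNX, 63.6% (30.8 to 89.1) in Foxo1cKO PNX and 63.6% in WT PNX, so the gap was present at equal depth. Klrb1b, an inhibitory lectin receptor, had 130 CPM in M3cKO PNX members and 542 CPM in WT PNX members, 4.18-fold lower (2.24 to 7.96). It was detected in 5 of 28 NK cells in M3cKO PNX, 4 of 11 in Foxo1cKO PNX and 12 of 13 in WT PNX.

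Cd52, a small surface glycoprotein of lymphocytes, had 205 CPM in M3cKO PNX members and 1004 CPM in WT PNX members, 4.9-fold lower (3.06 to 7.99). M3cKO PNX was lower than WT PNX both in NK cells (284 against 1073 CPM) and in T cells (127 against 854 CPM), and in the other T cells too (464 against 757 CPM). Cap1, which recycles actin, had 225 CPM in M3cKO PNX and 803 CPM in WT PNX. Atox1, a copper chaperone, was at a log2 ratio of -1.95, Ube2d2a, a ubiquitin-conjugating enzyme, at -1.74, and Spry2, an inhibitor of growth factor signalling, at -1.71. H2-Aa and the paracaspase gene Malt1 were lower in part through the WT PNX cell rich in MHC class II. The log2 ratio of Malt1 was -1.78, and -0.64 without the 5 cells, and that of H2-Aa was -3.19 and -1.93, with 94.6% of its WT PNX UMIs in 1 cell.

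T cell receptor genes were lower in M3cKO PNX for 9 of 13 measured and higher for 0, with a median log2 ratio of -0.95. Trac had 157 CPM in M3cKO PNX members and 562 CPM in WT PNX members, and within T cells alone 350 CPM in M3cKO PNX and 1048 CPM in WT PNX. Cd8a had 319 CPM in T cells of M3cKO PNX and 738 CPM in those of WT PNX, alongside the 9 T cells of M3cKO PNX with no coreceptor UMI; with every cell thinned to 1000 UMIs its log2 ratio over all members was 0.79, the opposite direction. Genes of the cytoskeleton and motility were lower for 14 of 28 and higher for 2, with a median of -0.58. Pfn1, profilin, had 1180 CPM in M3cKO PNX members and 2932 CPM in WT PNX members, and in NK cells 1483 CPM in M3cKO PNX and 4153 CPM in WT PNX. Trafficking receptors were lower for 10 of 21 and higher for 0, but with another scaling of the libraries (TMM) 4 of 18 were lower and 3 higher, and of the cytoskeleton genes 6 of 30 were lower and 4 higher. TMM scaling moved every log2 ratio of this comparison up by 0.26 and turned the overall split from 47.6% higher to 76% higher; the chaperones (13 of 14 higher) and T cell receptor genes (8 of 12 lower) kept their direction.

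Among FOXO targets in M3cKO PNX, 3 of 14 were higher and 4 lower, with a median log2 ratio of 0.03, shares close to the 19.8% higher and 29.6% lower of all genes measured. Klf2, which sets the recirculation program, had 628 CPM in M3cKO PNX members and 1506 CPM in WT PNX members. In NK cells it had 442 CPM in M3cKO PNX and 2053 CPM in WT PNX, and in T cells 796 and 1087 CPM in those libraries. Granule proteins were higher for 6 of 14 and lower for 3, but 2 of 11 and 3 without the other-class cells, since Lamp1 and Lamp2 rested on those cells. Prf1 had 532 CPM in M3cKO PNX members, 735 CPM in Foxo1cKO PNX and 1426 CPM in WT PNX, and Gzmb 996, 1079 and 1707 CPM. Gzma was close to level in these sums over all members, with 2606, 2110 and 2871 CPM. Without the other-class cells Prf1 had 663 CPM in M3cKO PNX and 1551 CPM in WT PNX, and Gzmb 1113 CPM in M3cKO PNX and 1857 CPM in WT PNX. In the sums over all members both genes were thus highest in WT PNX with and without those cells. Gzmb in M3cKO PNX lay below Foxo1cKO PNX with them and above it without them. These sums mix the classes: NK cells held 63372 of 146560 member UMIs in M3cKO PNX, 20126 of 84371 in Foxo1cKO PNX and 21429 of 49802 in WT PNX. Within NK cells Gzmb had 1531, 2633 and 2847 CPM in those libraries, and Gzma 5428, 8099 and 6533 CPM. These NK sums include other-class cells of 4555 and 12274 UMIs in M3cKO PNX. In WT PNX they include an other-class cell of 4035 UMIs with 0 Gzma and 0 Gzmb UMIs. No order of the libraries is therefore read from these NK values. In sham, Prf1 had 1 UMI and Gzmb 3 UMIs. Prf1 and Gzma entered the rule that chose the cells.

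Transcription factors and receptors of killer cells varied in both directions. Nfil3, needed for NK development, had 130 CPM in M3cKO PNX members, 107 CPM in Foxo1cKO PNX, 20.1 CPM in WT PNX and 0 in sham, from 19, 9, 1 and 0 UMIs. Zeb2, which drives terminal maturation, had 34.1, 59.3, 201 and 311 CPM in the same libraries, from 5, 5, 10 and 2 UMIs. The orders of these genes were thus opposite, on few UMIs. Eomes had 273 CPM in M3cKO PNX members, 356 CPM in Foxo1cKO PNX, 181 CPM in WT PNX and 0 in sham. Il2rb, the receptor chain for interleukins 2 and 15, was one of the most widely detected genes, in 55 of 61 M3cKO PNX members, 26 of 30 in Foxo1cKO PNX, 17 of 27 in WT PNX and 2 of 3 in sham. In NK cells it had 2525 CPM in M3cKO PNX, 3230 CPM in Foxo1cKO PNX and 2380 CPM in WT PNX, above the 1051, 832 and 505 CPM in the T cells of those libraries. Serpinb6b had 1221 CPM in M3cKO PNX members, 889 CPM in Foxo1cKO PNX, 522 CPM in WT PNX and 156 CPM in sham. Gzmk, a granzyme of memory T cells, had 4 UMIs in 2 T cells of M3cKO PNX and 0 elsewhere, and Gzmc had 1 UMI in all.

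In Foxo1cKO PNX members, 39 of 609 genes were higher than in WT PNX members by the rule of size (6.4%) and 42 lower (6.9%). Interferon-inducible genes, chaperones and Bcl2 were among the higher ones by this rule or in the lists, and Itgam, inhibitory NK receptors and immediate early genes among the lower ones. Ifi203, a DNA-sensing protein of the HIN-200 family, had 31 UMIs in 13 Foxo1cKO PNX members (367 CPM), of which 27 were in T cells, and 0 UMIs in WT PNX members, at least 6.1-fold higher against a floor of 3 UMIs. It also had 34 UMIs in M3cKO PNX members (232 CPM), so WT PNX was the library apart, and in the other T cells it was 399 CPM in Foxo1cKO PNX, 183 CPM in M3cKO PNX and 205 CPM in WT PNX. Ifi27l2a, a small interferon-induced protein, had 628 CPM in Foxo1cKO PNX members and 261 CPM in WT PNX members, a ratio of 2.41 (1.29 to 4.81), and in T cells 868 CPM in Foxo1cKO PNX and 427 CPM in WT PNX. Of 11 measured interferon-stimulated genes 6 were higher and 0 lower, with a median log2 ratio of 0.66, where 18.9% of 2356 genes were higher, 30.9% lower and the median was -0.16.

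Bcl2 had 28 UMIs in 13 Foxo1cKO PNX members (332 CPM) and 5 UMIs in 5 WT PNX members (100 CPM), a ratio of 3.31 (1.26 to 11). Bcl2 is in the list of FOXO targets, of which 2 of 13 were higher and 1 lower, with a median of -0.17. Ccr7 had 628 CPM in Foxo1cKO PNX members and 562 CPM in WT PNX members, and Klf2 1268 CPM in Foxo1cKO PNX and 1506 CPM in WT PNX. The chaperone list had 6 of 11 genes higher and 0 lower, with Hspe1, the mitochondrial HSP10, at 2.27 and Hsp90aa1 at 0.95. Dnajb1 and Dnaja1 were not among them: Dnajb1 had 107 CPM in Foxo1cKO PNX and 100 CPM in WT PNX, and Dnaja1 273 CPM in Foxo1cKO PNX and 281 CPM in WT PNX.

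The largest ratio in Foxo1cKO PNX came from 1 cell. Xcl1, the chemokine lymphotactin, had 205 UMIs (2430 CPM) in Foxo1cKO PNX members and 1 UMI in WT PNX members, and 184 of the 205 lay in 1 T cell of 8230 UMIs, which also held 81.5% of the UMIs of Crtam, an adhesion receptor of activated killer cells. Mif, a cytokine, likewise had 60.5% of its UMIs in 1 cell. Naca (log2 ratio 1.45), Banf1 (1.72), Ebna1bp2 (1.76) and Larp1, genes of chromatin, ribosome assembly and translation, made up the rest of the 10 highest.

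Itgam had 94.8 CPM in Foxo1cKO PNX members and 683 CPM in WT PNX members, 7.2-fold lower (3.27 to 18), and within NK cells 397 CPM in Foxo1cKO PNX and 1540 CPM in WT PNX. Crip1, a LIM protein, had 59.3 CPM in Foxo1cKO PNX and 522 CPM in WT PNX, 8.81-fold lower (3.33 to 29.4). Inhibitory NK receptors were lower for 4 of 5 measured and higher for 0, with a median of -1.34. Klrb1b had 71.1 CPM in Foxo1cKO PNX members and 542 CPM in WT PNX members, 7.62-fold lower (3.08 to 22.6), and within NK cells 248 CPM in Foxo1cKO PNX and 1260 CPM in WT PNX. Klrg1 had 71.1 CPM in Foxo1cKO PNX members and 221 CPM in WT PNX members, but in NK cells 298 CPM in Foxo1cKO PNX and 420 CPM in WT PNX. NK cells were 36.7% of members in Foxo1cKO PNX and 48.1% in WT PNX. They held 20126 of 84371 member UMIs in Foxo1cKO PNX and 21429 of 49802 in WT PNX, and the part of this mix in the list was not tested. Of 11 activating receptors 4 were higher and 1 lower, with a median of 0.31, and the largest of these ratios, that of Crtam at 2.50, rested mainly on the 1 T cell named above. The integrin Itga2 (CD49b), a marker of NK cells, had 1143 CPM in NK cells of Foxo1cKO PNX and 187 CPM in those of WT PNX.

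Immediate early genes were lower in Foxo1cKO PNX for 11 of 23 and higher for 2, with a median of -0.53. Klf4 had 0 UMIs in Foxo1cKO PNX members and 26 in WT PNX members, of which 25 were in 2 NK cells. Dusp1, a phosphatase that shuts off MAP kinases, had 284 CPM in Foxo1cKO PNX members and 863 CPM in WT PNX members. Skil, Sfr1 and Ifrd1 also passed downward, and Malt1 (-2.29, and -1.30 without the cell rich in MHC class II) and Plek (-1.74 and -0.79) rested partly on that cell. H2-Aa had 10 UMIs in Foxo1cKO PNX members and 129 in WT PNX members, and a log2 ratio of -0.32 without that cell. TMM scaling moved this comparison up by 0.17 in log2 and the split from 48.1% to 66.3% higher; the interferon list then had 8 of 11 higher, the chaperones 8 of 12 and the inhibitory receptors 2 of 7 higher and 4 lower.

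**Figure D5:**
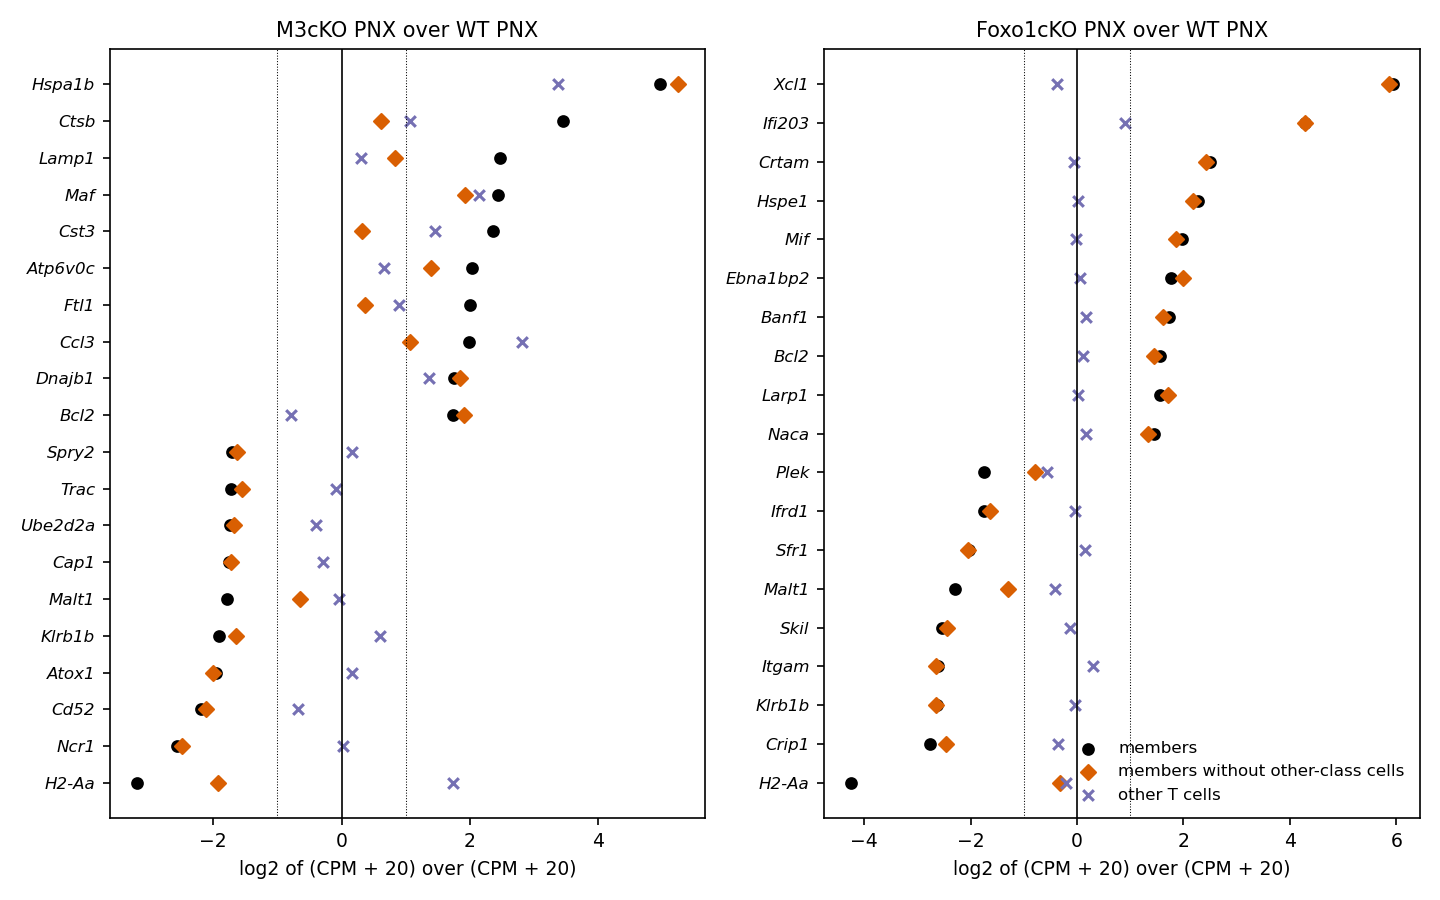
log2 ratio over WT PNX on log2(CPM + 20), on the x axis, for named genes in M3cKO PNX and Foxo1cKO PNX members, with diamonds for the value without the 5 other-class cells and crosses for the other T cells of each library. Dnajb1 and Bcl2 keep their place in M3cKO PNX (1.76 and 1.74), and Ctsb and Cst3 move toward 0 without those cells.

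Cell cycle transcripts were rare. Of the members 2 of 61 in M3cKO PNX, 2 of 30 in Foxo1cKO PNX, 0 of 27 in WT PNX and 0 of 3 in sham had at least 2 UMIs over 10 cell cycle genes. Top2a, a topoisomerase of dividing cells, had 18 UMIs in 4 M3cKO PNX members, 17 of them in 3 NK cells, 1 UMI in Foxo1cKO PNX and 0 in WT PNX and sham. Stmn1, which destabilises microtubules, had 252 CPM in M3cKO PNX members, 178 CPM in Foxo1cKO PNX, 60.2 CPM in WT PNX and 156 CPM in sham.

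The WT PNX members could be set against only 3 sham T cells with 6424 UMIs. Of 514 genes 155 were higher in WT PNX (30.2%) and 0 lower (0%); none could be lower, since the rule asks for 5 cells of the higher library. With no mitochondrial limit sham had 9 members, and 84 genes were higher in WT PNX and 37 lower. The genes with the largest ratios had 0 UMIs in sham, among them Gimap3 with 73 UMIs in WT PNX members, Irf8 with 63, Hnrnpa2b1 with 47 and H2afz and Itga4 with 44 each. Irf8 was nearly confined to NK cells here, and sham had 0 NK members. In the sham T cells Gzma had 18 UMIs in 2 cells and Ccl5 71 UMIs in 3, and 1 cell held all 58 UMIs of Ccl4. A floor of 3 UMIs stood for 467 CPM in sham, so most genes were not detectable at this depth.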

How the data were processed

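The deposited matrices hold UMI counts per gene and cell barcode, made by the authors with Cell Ranger against mm10, per the labels' protocols, and were used without further normalization. Members and gene lists were chosen with earlier results of these data known. Kept cells had at least 500 genes and at most 10% mitochondrial UMIs; the member rule is given with the results. No doublets were removed in the main values, since the doublet caller's own threshold marked 4 and 0 barcodes in M3cKO PNX and sham, and removal of the highest Scrublet scores (0.8% per 1000 barcodes) was an alternative. Library depth ranged between 16197681 and 30445999 UMIs.

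UMIs were summed per library and class and divided by their total (CPM). With 1 library per group there was no test. Shares carry Clopper-Pearson intervals, levels exact Poisson intervals and ratios exact conditional binomial intervals at 95%, for counting error only. The genes named in a library comparison are the 10 with the largest log2 ratio of CPM + 20 in each direction among those 2-fold apart, at 300 CPM or more and in at least 5 members of the higher library; for NK over T, the 15 with the largest smallest-library ratio; and up to 4 of each list at 100 CPM. Mitochondrial, ribosomal, sex-linked and receptor segment genes, and genes over 5 times as high in another cell class, were left out, and some items are not reported here; Foxo1, Rhoj and Pecam1 were always named. Genes named outside this rule, such as further granule, receptor and cytokine genes, were chosen after their values were seen. The rule asked NK and T cells separately only with 20 cells of a class in both libraries, which never occurred. Software was Python 3.11.15, numpy 2.4.6, scipy 1.17.1, pandas 2.3.3, scanpy 1.11.5, matplotlib 3.10.9 and edgeR 4.0.16 (TMM scaling only) in R 4.3.3. Promoter sequences are from RefSeq.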

Additional observations from a re-analysis of the deposited data

How the results depend on the processing

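No paired analysis was possible because each group was 1 library. At a limit of 5% mitochondrial UMIs the M3cKO PNX library had 0.453% members, the WT PNX library 0.631% and sham 0%, and NK cells made up 83.3% of M3cKO PNX members, 60% of Foxo1cKO PNX members and 71.4% of WT PNX members; with no limit (added after seeing the data) the M3cKO PNX values were 1.55% and 25.2%. The 103 genes 2-fold apart between M3cKO PNX and WT PNX became 187 with cells thinned to 1000 UMIs, 2939 with no minimum level or number of cells, 42 at 600 CPM and 182 in NK cells alone. The 81 of Foxo1cKO PNX over WT PNX became 51 at the 5% limit, 210 thinned, 3114 with no minimum, 27 at 600 CPM and 169 in NK cells alone. The genes in these lists changed as well. At the 5% limit M3cKO PNX over WT PNX had 74 genes, and only 16 of the 103 passed again in the same direction. For Foxo1cKO PNX over WT PNX 5 of the 81 did. With cells thinned, 52 of the 103 and 25 of the 81 passed again. The 155 of WT PNX over sham became 233 thinned, 452 with TMM, 6401 with no minimum and 53 at 600 CPM, and the 49 of NK over T became 25 thinned. Without the mitochondrial limit 28.6% of the M3cKO PNX genes were higher, against 47.6% with it, and WT PNX over sham had 84 genes higher and 37 lower (69.4% higher), against 155 and 0 with it.

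Log2 ratios of M3cKO PNX over WT PNX that turned were, at the 5% limit, Ctsb and Maf (-3.27 each), Cst3 (-1.40) and S100a4 (-1.01); thinned, Maf and Ccl3 (-0.41 each), H2-Aa (2.83), Cd8a (0.79), Ccr7 (0.13), Jund (0.49), Ldha (-0.25) and S100a4 (-0.72); with no limit, Ccr7 (0.05); without other-class cells, S100a4 (-0.16); in NK cells, Ccr7 (0.57); and in T cells, Ctsb (-0.05), Lamp1 and Cst3 (-0.53 each), Spry2 (0.51), Dusp1 (0.14) and S100a4 (-0.82). Of Foxo1cKO PNX over WT PNX they were, at the 5% limit, Ebna1bp2 (-3.27), Stat3 (0.45) and Ldha (-3.81); thinned, Tubb5 (-0.47) and Ldha (-0.93); and in NK cells, Tubb5 (-0.79). Of WT PNX over sham, H2-Aa (-2.34) and H2afz (-0.09) turned when thinned. The cause was not tested. Over all alternatives, 315 of the named genes' values still passed the rule of size in the same direction in M3cKO PNX over WT PNX. The same held for 274 in Foxo1cKO PNX over WT PNX and 97 in WT PNX over sham. In these comparisons 139, 132 and 10 values no longer passed it but did not turn. With 0 sham cells left, WT PNX over sham gave no value at the 5% limit or in NK cells.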
